A study of Mus musculus with 36 samples.

Results

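The genes of the urea cycle and of amino acid breakdown were followed in 36 mouse livers. The set held 41 genes, taken by name: 8 of the urea cycle with its transporters, 6 of glutamine and glutamate handling and transamination, 5 of phenylalanine and tyrosine, 2 of histidine, 3 of serine, threonine and glyoxylate, 4 of tryptophan, 3 of the branched-chain amino acids, 8 of methionine and cysteine, and 2 of proline and lysine. They were found by gene name or by the current symbol of the probe's accession, and 53 of the 41174 probes on the array, a whole-genome Agilent oligonucleotide design, belonged to them. Of these probes, 52 were among the 21781 that the authors kept as expressed, so that all 41 genes were measured, among 13042 named genes in all. Each gene is described by its brightest probe.

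The livers came from male C57BL/6J mice, 12 in each of 3 groups. All mice first ate a mild-high-fat diet with 30% of its energy as fat for an adaptation phase of 3 weeks. The t=0 mice were killed at its end. All mice were fasted for at least 2 hours before death. The HF mice ate the same diet for 12 more weeks, and the HF-Q mice ate it for 12 weeks with 0.33% (w/w) quercetin, a plant flavonol. No group ate another diet, so that HF and HF-Q differ from t=0 in age and in time on the diet at once, and these cannot be told apart. By design HF-Q differs from HF in quercetin alone, but the sample labels used here hold no hour of death. Each liver was hybridised in red (Cy5) against a green (Cy3) pool of all samples. Values are log2 normalised signals, in which 1 unit is a 2-fold difference, and the levels of different genes cannot be set against each other.

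Hepatocytes strip amino acids of their nitrogen and burn or rebuild the carbon that is left. Transaminases collect the nitrogen on glutamate and aspartate, glutamate dehydrogenase and glutaminase release it as ammonia, and the urea cycle, which runs between mitochondrion and cytosol, joins ammonia and the nitrogen of aspartate into urea. The carbon chains pass through pathways of their own, several of which are strongest in liver, and the levels of many of these enzymes are known to follow dietary protein, glucagon and glucocorticoids.

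After 12 more weeks on the diet most of the set stood lower than at t=0, and a few genes stood out. In HF against t=0, 20 of the 41 genes fell and 2 rose at an adjusted p under 0.05, where 9.63% of all 21781 probes fell and 11.3% rose (20.9% in either direction). The median change of the 41 genes was -0.22 on the log2 scale, and that of all probes -0.0047. In HF-Q against t=0, 19 genes fell and 1 rose, where 5.28% of all probes fell and 6.46% rose (11.7% in either direction), with a median of -0.17 for the genes and 0.01 for all probes. In HF-Q against HF none of the 41 passed, where 1.04% of all probes were lower and 1.73% higher (2.77% in either direction). All 12 HF mice lay below the t=0 median for 10 of the 41 genes, against 6.28% of all probes. All 12 HF-Q mice did so for 12 of the 41, against 3.23%. Adjusted p-values are from limma, fitted to all probes and all 36 arrays, with Benjamini-Hochberg adjustment. The first and second comparisons share the t=0 mice, and are therefore given side by side and not as independent results.

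**Figure D1:**
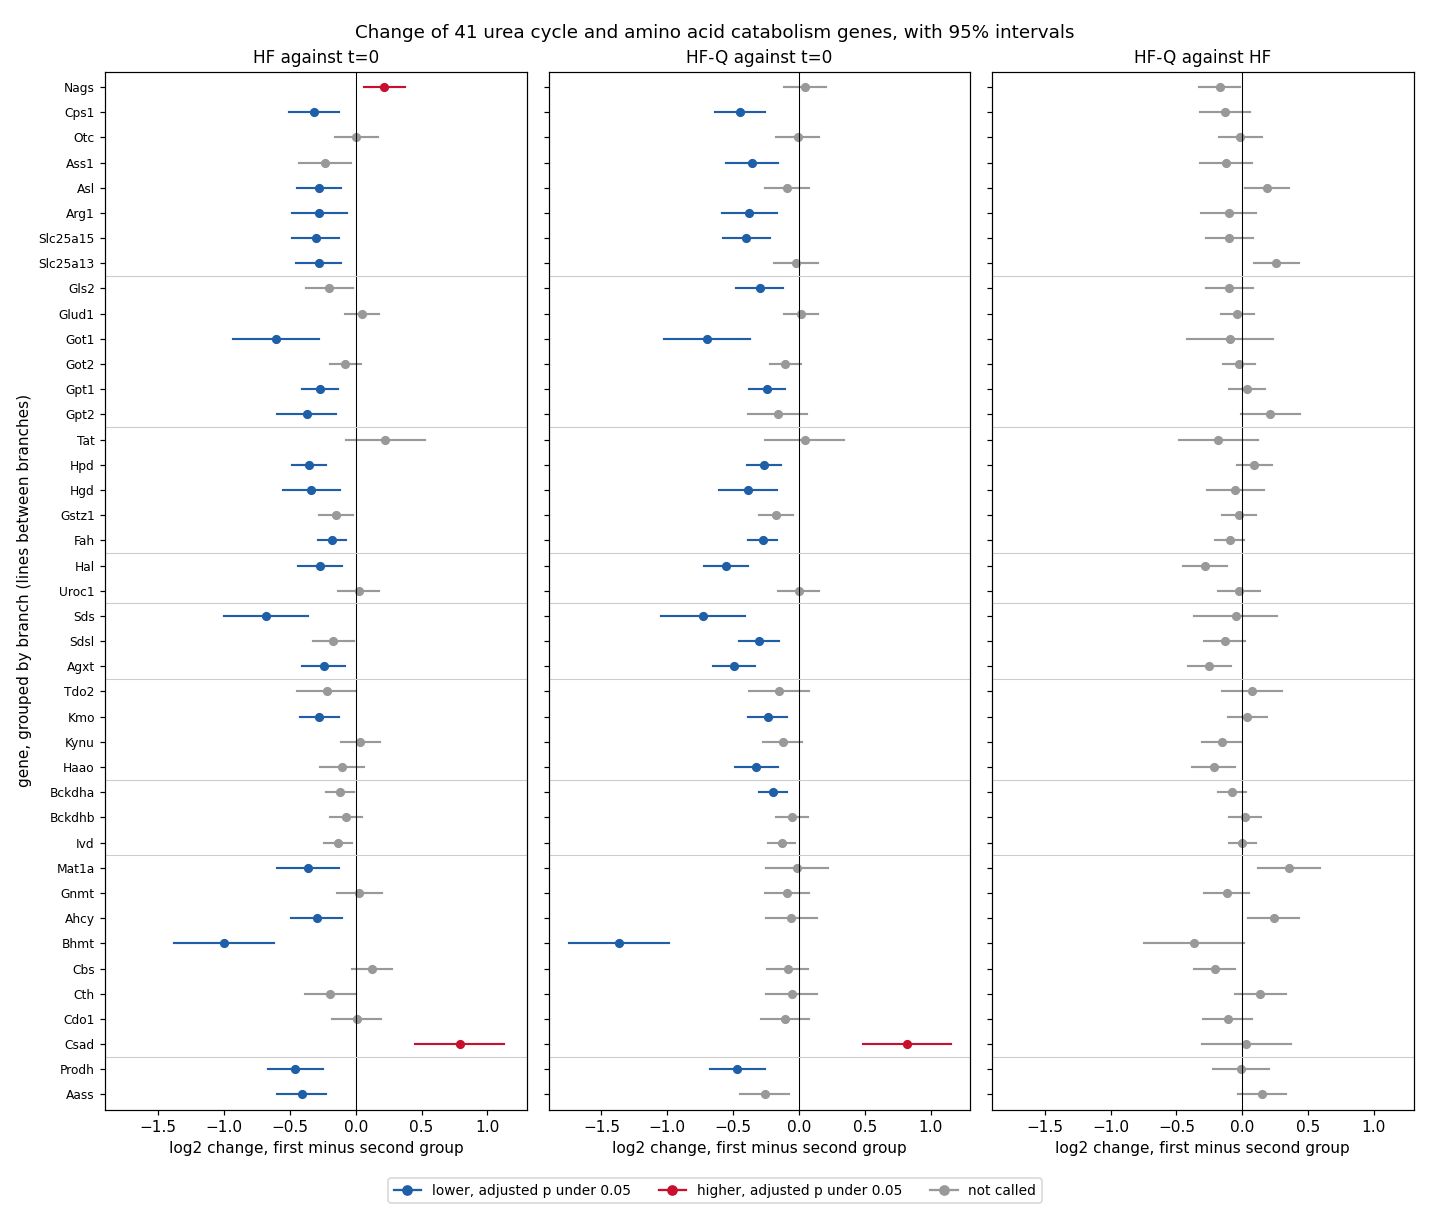
Change of each of the 41 genes on the log2 scale (x axis, first group minus second) in the 3 comparisons, with the 95% interval of the fit as a line and genes ordered by branch (y axis). Blue points fell and red points rose at an adjusted p under 0.05. In the first and second panels most points lie left of 0, with Bhmt farthest left and Csad farthest right at 0.79 and 0.82, and in the third panel no point is coloured.

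Most of these genes are among the brightest on the array. Among the 2034 probes with a mean level of at least 13, which include 34 of the 41 genes, 5.75% fell and 20.4% rose in HF against t=0, while 18 of those 34 genes fell and 2 rose. In HF-Q against t=0, 7.23% of the same probes fell and 10.1% rose, while 15 of the 34 genes fell and 1 rose. No probe of the set was saturated on any array, but 13 of the 41 were read on every array from a second scan at low laser power that the scanner software scaled up, 8 on none, and the others on some.

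The 250 bases upstream of the start site are shown for the 4 genes with the largest called change that the RefSeq promoter table (GRCm38.p6) holds, so that the regions in front of the genes that moved most can be compared. It lists 30 of the 41 genes, with 34 start sites. Each line runs 5′ to 3′ on the gene's strand and ends at the base before the start site. Capitals mark every match, on either strand, to TATAAA (the TATA box), to CCAAT (the binding letters of NF-Y), to AGGTCA (a nuclear receptor half-site), to CACGTG (an E-box) or to TGACG (a half-site of the cyclic AMP response element). None of these 5 motifs contains another.

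Bhmt, chr13:93637759-93638008 (- strand): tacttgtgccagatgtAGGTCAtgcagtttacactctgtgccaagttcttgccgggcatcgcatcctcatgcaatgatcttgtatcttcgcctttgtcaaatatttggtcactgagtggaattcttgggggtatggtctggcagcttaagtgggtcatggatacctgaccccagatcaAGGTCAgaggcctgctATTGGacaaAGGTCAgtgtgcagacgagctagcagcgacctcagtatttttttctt
Csad, start site 1, chr15:102189044-102189293 (- strand): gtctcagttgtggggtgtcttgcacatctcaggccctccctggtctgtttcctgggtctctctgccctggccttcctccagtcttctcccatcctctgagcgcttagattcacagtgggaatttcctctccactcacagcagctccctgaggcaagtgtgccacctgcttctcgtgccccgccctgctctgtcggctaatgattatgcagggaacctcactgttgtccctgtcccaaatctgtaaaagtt
Csad, start site 2, chr15:102205053-102205302 (- strand): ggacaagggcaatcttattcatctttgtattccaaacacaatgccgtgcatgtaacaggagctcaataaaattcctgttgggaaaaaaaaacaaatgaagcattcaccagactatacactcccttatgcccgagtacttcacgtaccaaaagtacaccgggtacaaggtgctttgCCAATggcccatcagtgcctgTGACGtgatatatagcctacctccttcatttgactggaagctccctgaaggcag
Got1, chr19:43524606-43524855 (- strand): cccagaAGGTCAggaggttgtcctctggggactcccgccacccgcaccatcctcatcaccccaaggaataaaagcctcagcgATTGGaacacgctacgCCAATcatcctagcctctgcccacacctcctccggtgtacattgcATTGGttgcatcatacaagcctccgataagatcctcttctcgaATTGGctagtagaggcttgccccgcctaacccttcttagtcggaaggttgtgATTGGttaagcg
Hal, chr10:93488518-93488767 (+ strand): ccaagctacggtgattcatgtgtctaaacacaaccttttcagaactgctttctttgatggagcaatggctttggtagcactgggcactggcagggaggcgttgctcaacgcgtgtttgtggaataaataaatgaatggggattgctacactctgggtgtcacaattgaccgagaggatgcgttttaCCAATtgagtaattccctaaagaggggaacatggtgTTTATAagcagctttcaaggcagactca

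AGGTCA occurred 3 times in front of Bhmt, beginning 234, 72 and 47 bases before the start, and it lay within 12 of the 34 windows of the set (35.3%), against 14% of all 32851 windows in the table. CCAAT occurred 5 times in front of Got1, and lay within 17 of the 34 windows (50%), against 33.8% of all. TATAAA was found once in the windows shown, 28 bases before the start of Hal and on the strand opposite to the gene. It lay in 4 of the 34 windows (11.8%) against 12.4% of all. CACGTG lay in 4 windows of the set (11.8%, against 6.02% of all) and TGACG in 4 (11.8%, against 17.8%), the latter including the second start site of Csad. The first Csad window held none of the 5. These are matches of letters, not mapped binding sites.

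Methionine and cysteine. The largest fall of the set was in Bhmt, betaine-homocysteine methyltransferase, which remethylates homocysteine to methionine with betaine as donor. Its probe lies at chr13:94720852-94720911 of mm8, the build of the array files. The signal ran from 15.5 to 16.8 in the t=0 mice, with a median of 16.2, from 14.6 to 16.1 in HF, with a median of 15.3, and from 13.8 to 16.2 in HF-Q, with a median of 14.8. Every HF mouse lay below the t=0 median, as did 11 of the 12 HF-Q mice, the exception being HF-Q replicate 4, though the ranges overlapped. The level was lower in HF, where it fell by 1.00 on the log2 scale (2.00-fold, SE 0.19, adjusted p = 0.00021), and in HF-Q, where it fell by 1.37 (2.58-fold, SE 0.19, adjusted p = 6.0e-06). It was lower than t=0 within all 9 slides in both comparisons. Between HF-Q and HF the difference of -0.37 did not pass (adjusted p = 0.32), with a 95% interval from -0.75 to 0.01.

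Csad, cysteine sulfinic acid decarboxylase, which makes hypotaurine on the way to taurine, went the other way. Its signal ran from 12.9 to 14.5 at t=0 (median 13.8), from 13.7 to 15.2 in HF (median 14.7) and from 14.05 to 15.7 in HF-Q (median 14.6). It rose by 0.79 in HF (1.73-fold, SE 0.17, adjusted p = 0.00077) and by 0.82 in HF-Q (1.77-fold, SE 0.17, adjusted p = 0.0011), with 11 and 12 of 12 mice above the t=0 median and all 9 slides on that side. A second Csad probe gave 0.76 and 0.93. The first probe was read from the scan at low laser power on 1 t=0, 10 HF and 8 HF-Q arrays. For the second probe these numbers were 0, 8 and 7. The part of the scan setting in this rise was not tested. Cdo1, cysteine dioxygenase, the step before Csad, differed by 0.01 in HF and -0.10 in HF-Q (adjusted p = 0.97 and 0.50).

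In the methionine cycle, Mat1a, which makes S-adenosylmethionine, and Ahcy, which splits S-adenosylhomocysteine, fell in HF by 0.36 and 0.30 on the log2 scale (adjusted p = 0.023 for each). In HF-Q they lay at -0.01 and -0.06 from t=0 (adjusted p = 0.96 and 0.75). The direct comparison of HF-Q with HF gave 0.35 for Mat1a (adjusted p = 0.096) and 0.24 for Ahcy (adjusted p = 0.19), which did not pass, so that the 2 diets were not shown to differ. All 3 Ahcy probes gave falls in HF, between -0.30 and -0.39. Gnmt, the methyltransferase that disposes of excess S-adenosylmethionine, had medians of 17.8, 17.8 and 17.7 at t=0, HF and HF-Q. Cbs and Cth, the transsulfuration enzymes that turn homocysteine into cysteine, did not pass either, with changes between -0.19 and 0.12 from t=0.

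**Figure D2:**
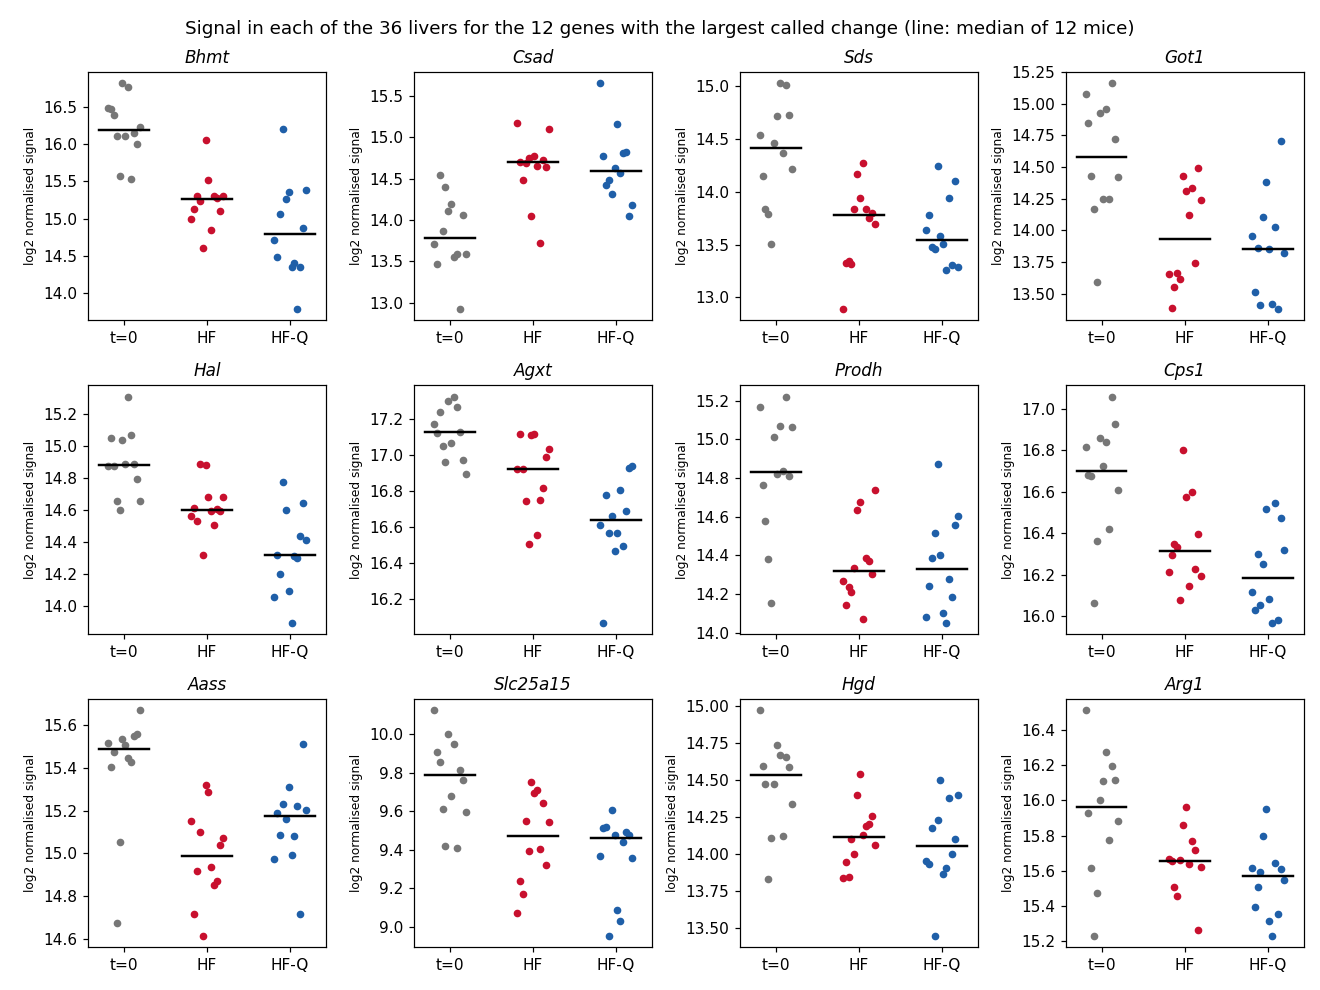
Log2 normalised signal (y axes, each panel with its own range) in every liver of the 12 genes with the largest called change, by group (x axis, 12 mice each, points spread sideways for visibility), with the group median as a line. Csad alone lies higher in HF and HF-Q than at t=0, while the other 11 lie lower, and in each of the 12 panels the groups overlap.

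Serine, threonine and glyoxylate. Sds, serine dehydratase, which deaminates serine to pyruvate, is a gluconeogenic enzyme of the periportal liver. Its signal ran from 13.5 to 15.0 at t=0 (median 14.4), from 12.9 to 14.3 in HF (median 13.8) and from 13.3 to 14.2 in HF-Q (median 13.5). All 12 mice of both later groups lay below the t=0 median, with ranges that overlapped. Sds fell by 0.68 in HF (SE 0.16, adjusted p = 0.0019) and by 0.73 in HF-Q (1.66-fold, SE 0.16, adjusted p = 0.0019). The Sds probe was read from the scan at low laser power on 7 t=0 arrays, 1 HF array and 1 HF-Q array. Its relative Sdsl fell by 0.30 in HF-Q (adjusted p = 0.0072), and its change in HF was -0.17 (adjusted p = 0.11).

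Agxt, the peroxisomal alanine-glyoxylate aminotransferase that removes glyoxylate, ran from 16.9 to 17.3 at t=0 (median 17.1), from 16.5 to 17.1 in HF (median 16.9) and from 16.1 to 16.9 in HF-Q (median 16.6). Every mouse of both later groups lay below the t=0 median. It fell by 0.24 in HF (SE 0.08, adjusted p = 0.027) and by 0.49 in HF-Q (SE 0.08, adjusted p = 7.6e-05).

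Glutamine, glutamate and transaminases. Got1, the cytosolic aspartate aminotransferase, ran from 13.6 to 15.2 at t=0 (median 14.6), from 13.4 to 14.5 in HF (median 13.9) and from 13.4 to 14.7 in HF-Q (median 13.9). The HF mice all lay below the t=0 median, and HF-Q replicate 11 was the 1 mouse of its group above it. Got1 fell by 0.61 in HF (1.52-fold, SE 0.16, adjusted p = 0.0070) and by 0.70 in HF-Q (1.62-fold, SE 0.16, adjusted p = 0.0041). Within slides, Got1 was lower than t=0 on 8 of 9 in HF and on 6 of 9 in HF-Q. The mitochondrial enzyme Got2, by contrast, had medians of 14.01, 13.92 and 13.92 and did not pass.

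The cytosolic alanine aminotransferase Gpt1 fell by 0.27 in HF (adjusted p = 0.0036) and by 0.24 in HF-Q (adjusted p = 0.017). The mitochondrial Gpt2 fell by 0.37 in HF (adjusted p = 0.014) and lay at -0.16 in HF-Q (adjusted p = 0.37). Gls2, the liver glutaminase, fell in HF-Q by 0.30 (adjusted p = 0.024) and lay at -0.20 in HF (adjusted p = 0.10). Glud1, glutamate dehydrogenase, which links glutamate to free ammonia, had medians of 16.5, 16.6 and 16.5 and changes of 0.05 and 0.01.

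Urea cycle. Of the 8 genes, 5 fell and 1 rose in HF, where 9.63% of all probes fell and 11.3% rose. In HF-Q 4 of them fell, where 5.28% of all probes did. Cps1, carbamoyl-phosphate synthetase, the entry of ammonia into the cycle, ran from 16.1 to 17.1 at t=0 (median 16.7), from 16.1 to 16.8 in HF (median 16.3) and from 16.0 to 16.5 in HF-Q (median 16.2). In HF 11 of 12 mice, and in HF-Q all 12, lay below the t=0 median, and it fell by 0.32 (SE 0.09, adjusted p = 0.013) and by 0.45 (SE 0.09, adjusted p = 0.0013).

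Slc25a15, the ornithine carrier of the mitochondrial membrane, ran from 9.41 to 10.1 at t=0 (median 9.79), from 9.07 to 9.75 in HF (median 9.47) and from 8.95 to 9.61 in HF-Q (median 9.46). It fell by 0.30 in HF (SE 0.09, adjusted p = 0.012) and by 0.40 in HF-Q (SE 0.09, adjusted p = 0.0025), with all 12 mice of each group below the t=0 median. It is the dimmest of the 41, with a Cy5 signal 14.3 times background, and the authors' values carry no background subtraction, which makes a change of a dim probe look smaller.

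Arg1, arginase, which releases urea, ran from 15.2 to 16.5 at t=0 (median 16.0), from 15.3 to 16.0 in HF (median 15.7) and from 15.2 to 16.0 in HF-Q (median 15.6). All 12 HF and all 12 HF-Q mice lay below the t=0 median, whereas the t=0 mice themselves spanned both later groups. Within slides, Arg1 was lower than t=0 on 6 of 9 in HF and on 7 of 9 in HF-Q. It fell by 0.38 in HF-Q (SE 0.10, adjusted p = 0.013). In HF its fall of 0.28 (SE 0.10) lay at the threshold (adjusted p = 0.04998), and it no longer passed in 7 of 19 other settings.

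Asl, argininosuccinate lyase, and Slc25a13, the aspartate-glutamate carrier citrin, both fell by 0.28 in HF (adjusted p = 0.013 and 0.014), and lay at -0.09 and -0.02 in HF-Q (adjusted p = 0.52 and 0.90). Ass1, argininosuccinate synthetase, fell by 0.36 in HF-Q (adjusted p = 0.013) and lay at -0.23 in HF (adjusted p = 0.084). Nags, which makes the N-acetylglutamate that Cps1 needs, rose by 0.22 in HF (adjusted p = 0.040), with 9 of 12 mice above the t=0 median. A second Nags probe gave 0.06 (adjusted p = 0.60), and after loess normalization of the scanner intensities the first gave 0.16 (adjusted p = 0.099), one of 8 settings in which it did not pass. Otc, ornithine transcarbamylase, differed by 0.01 and -0.01 by its brightest probe. Its 2 dimmer probes gave -0.28 and -0.30 in HF (adjusted p = 0.035 and 0.00033), so that its probes disagree. In HF-Q these 2 gave -0.22 and -0.26 (adjusted p = 0.12 and 0.0027).

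Phenylalanine and tyrosine. Hpd, Hgd and Fah, the enzymes of the chain that takes tyrosine to fumarate and acetoacetate, fell in both comparisons. Hgd, homogentisate dioxygenase, ran from 13.8 to 15.0 at t=0 (median 14.5), from 13.8 to 14.5 in HF (median 14.1) and from 13.4 to 14.5 in HF-Q (median 14.1). It fell by 0.34 in HF (SE 0.11, adjusted p = 0.023) and by 0.39 in HF-Q (SE 0.11, adjusted p = 0.015), with 11 and 12 of 12 mice below the t=0 median.

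Hpd, the dioxygenase before it, fell by 0.36 (adjusted p = 0.00015) and 0.26 (adjusted p = 0.0060). Fah, the hydrolase that ends the chain, fell by 0.18 (adjusted p = 0.015) and 0.28 (adjusted p = 0.00071). Gstz1, the isomerase between Hgd and Fah, had changes of -0.15 and -0.17 that did not pass (adjusted p = 0.090 and 0.071). Tat, tyrosine aminotransferase, the first step and a classical glucocorticoid target, had medians of 16.5, 16.6 and 16.4, and its changes of 0.23 and 0.04 did not pass.

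Histidine. Hal, histidine ammonia-lyase, which takes the amino group from histidine, ran from 14.6 to 15.3 at t=0 (median 14.9), from 14.3 to 14.9 in HF (median 14.6) and from 13.9 to 14.8 in HF-Q (median 14.3). It fell by 0.27 in HF (SE 0.08, adjusted p = 0.019) and by 0.55 in HF-Q (1.47-fold, SE 0.08, adjusted p = 2.6e-05). In HF-Q all 12 mice lay below the t=0 median and the level was lower within all 9 slides. Uroc1, urocanate hydratase, the next step, had medians of 14.9, 14.8 and 14.8 and did not pass.

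Tryptophan. In the kynurenine pathway, Kmo, the monooxygenase of kynurenine, fell by 0.28 in HF (adjusted p = 0.0068) and by 0.24 in HF-Q (adjusted p = 0.031). Haao, the dioxygenase of 3-hydroxyanthranilate farther down, fell by 0.32 in HF-Q (adjusted p = 0.0078) and lay at -0.11 in HF (adjusted p = 0.36). Tdo2, the first and rate-limiting enzyme, and Kynu, kynureninase, did not pass. Their medians at t=0, HF and HF-Q were 14.3, 14.1 and 14.2 for Tdo2 and 11.9, 12.0 and 11.9 for Kynu.

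Proline, lysine and the branched-chain amino acids. Prodh, proline dehydrogenase, ran from 14.2 to 15.2 at t=0 (median 14.8), from 14.1 to 14.7 in HF (median 14.3) and from 14.1 to 14.9 in HF-Q (median 14.3). It fell by 0.46 in HF (SE 0.10, adjusted p = 0.0016) and by 0.47 in HF-Q (SE 0.10, adjusted p = 0.0026). In HF all 12 mice, and in HF-Q 11 of 12, lay below the t=0 median.

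Aass, the enzyme that opens lysine breakdown, ran from 14.7 to 15.7 at t=0 (median 15.5), from 14.6 to 15.3 in HF (median 15.0) and from 14.7 to 15.5 in HF-Q (median 15.2). It fell by 0.41 in HF (SE 0.09, adjusted p = 0.0013) with every HF mouse below the t=0 median, and its change of -0.26 in HF-Q did not pass (adjusted p = 0.055). Bckdha, a subunit of the branched-chain ketoacid dehydrogenase, fell by 0.20 in HF-Q (adjusted p = 0.012) and lay at -0.12 in HF (adjusted p = 0.11). The other subunit, Bckdhb, and Ivd, the dehydrogenase of leucine breakdown, did not pass by their brightest probes, with changes between -0.13 and -0.06. A dimmer Ivd probe fell by 0.29 in HF (adjusted p = 0.0056) and by 0.25 in HF-Q (adjusted p = 0.026). A dimmer Bckdha probe fell by 0.17 in HF (adjusted p = 0.040) and lay at -0.16 in HF-Q (adjusted p = 0.067).

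Quercetin against the same diet without it. Of the 41 genes, 27 were lower and 14 higher in HF-Q than in HF, the median being -0.05, while 45.2% of all probes were lower. The median was nearly the same, -0.04, for the 2034 probes with a mean level of at least 13, which include 34 of the 41. With 1 probe for every named gene, 6743 of 13042 genes were lower. An unadjusted p under 0.05 was found for 10 of the 41 (24.4%) and for 16.7% of all probes. None passed the adjusted threshold in the limma fit described above or in the methods' t-test, but in 8 of the limma fits with other settings 1 gene passed, Hal or Slc25a13, and with array weights 2 did, Hal and Mat1a. The smallest adjusted p was that of Hal, at -0.28 (adjusted p = 0.054), with 9 of 12 HF-Q mice below the HF median, and with slide as a fixed but not as a random block it passed (-0.29, adjusted p = 0.046). Then came Agxt at -0.25 (adjusted p = 0.084), Slc25a13 at 0.26 (adjusted p = 0.088) and Mat1a at 0.35 (adjusted p = 0.096).

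The data bound the difference rather than show that there was none. For 39 of the 41 genes the 95% interval of HF-Q minus HF lay within 0.5 log2 units (1.41-fold) on either side of 0. The exceptions were Bhmt, whose interval reached -0.75, and Mat1a, whose interval reached 0.59. All 12 HF-Q mice lay above the HF median for Slc25a13 and all 12 below it for Kynu. That is 1 of the 41 genes in each direction, near the 2.19% and 1.47% of all probes, so that it does not set the genes apart. HF replicate 5 stood apart in its group, and without it Hal (-0.31, adjusted p = 0.032) and Agxt (-0.28, adjusted p = 0.037) passed.

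Other genes of the same pathways. A list of 93 further enzymes, carriers and regulators was named, of which 87 were measured. In HF against t=0, 16 fell (18.4%, against 9.63% of all probes) and 4 rose (4.6%, against 11.3%), with a median of -0.11, so that the share called in either direction, 23%, was near the 20.9% of all probes. After loess normalization of the scanner intensities these counts were 38 and 3, and the share of all probes called in that fit is not given here. The calls with the largest change were Psph, phosphoserine phosphatase of serine synthesis, which rose by 0.65 (adjusted p = 1.6e-07), and 4 that fell: Ppm1k, the phosphatase that activates the branched-chain ketoacid dehydrogenase, by 0.56 (adjusted p = 0.0012), the cationic amino acid carrier Slc7a2 by 0.55 (adjusted p = 0.0078), Abat, which transaminates GABA, by 0.47 (adjusted p = 0.00039) and the neutral amino acid carrier Slc38a4 by 0.41 (adjusted p = 0.0041).

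In HF-Q against t=0, 22 fell (25.3%, against 5.28% of all probes) and 4 rose (4.6%, against 6.46%), with a median of -0.09. The calls with the largest change were Ethe1, the sulfur dioxygenase of mitochondrial sulfide oxidation, at -0.58 (adjusted p = 0.00025), Gldc, the decarboxylase of the glycine cleavage system, at -0.50 (adjusted p = 0.0093), Abat at -0.50 (adjusted p = 0.00046), Psph at 0.50 (adjusted p = 3.3e-05) and Slc7a2 at -0.48 (adjusted p = 0.031). In histidine breakdown, Amdhd1 and Ftcd, 2 enzymes after Uroc1, fell by 0.32 and 0.27 (adjusted p = 0.0025 and 0.0013). These 2 were chosen after their values were seen.

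In HF-Q against HF, 3 of the 87 passed, which at 3.45% is near the 2.77% of all probes. With Arntl as a covariate none did (limma, 9 at an unadjusted p under 0.05). That fit called far fewer of all probes as well, their number being given in the last section. Whether the loss is particular to these genes was not tested. Gldc fell by 0.60 (SE 0.13, adjusted p = 0.0081), from a mean of 12.2 ± 0.21 (SD, n = 12) to 11.6 ± 0.33 (SD, n = 12), and Ethe1 fell by 0.47 (SE 0.10, adjusted p = 0.0089). Chdh, choline dehydrogenase, which oxidises choline on the way to the betaine that Bhmt uses, rose by 0.22 (SE 0.06, adjusted p = 0.037). None of the 12 regulators on the list passed in HF against t=0 or in HF-Q against HF. In HF-Q against t=0, 1 of the 12 passed, where 11.7% of all probes did. This was Sirt5, a mitochondrial deacylase known to act on Cps1, which fell by 0.35 (adjusted p = 0.0035). A link between the 2 in these livers was not tested.

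Variation between mice of 1 group. The 41 genes varied slightly more within groups than the average probe, with a median SD of 0.21 on the log2 scale against 0.18 for all probes. Bhmt (0.49), Csad (0.43), Got1 (0.42), Sds (0.41) and Tat (0.38) had the largest SDs of the set. For 21 pairs of enzymes that share or follow each other in a step, the deviations from the group means were correlated over the 36 mice. Of these, 16 passed after adjustment over the 21 pairs both by Pearson's r and by Spearman's rho in a two-sided permutation test within groups. All pairs of the set tended the same way: the median r was 0.37 over the 820 possible pairs and 0.46 over the 21. An r over 0.5 was found for 255 of the 820 pairs (31.1%) and for 8 of the 21. The test was against no correlation, so that passing it does not set these pairs apart from the others.

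Asl and Arg1, the last steps of the urea cycle, went together most closely. Pearson's r was 0.89 and Spearman's rho 0.89 (permutation p = 1e-05, the smallest that 100000 resamples can give, and adjusted p = 0.00021 for both). Without the 2 mice farthest from the median of Asl r was 0.85, and with a term for the slide it was 0.87. Within groups r was 0.94 at t=0, 0.76 in HF and 0.85 in HF-Q.

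Hgd and Gstz1, consecutive steps of tyrosine breakdown, had r = 0.67 and rho = 0.56 (permutation p = 4e-05 and 0.00063, adjusted p = 0.00037 and 0.0020), and r = 0.66 without the 2 farthest mice and 0.70 with a term for the slide. Bhmt and Mat1a had r = 0.62 and rho = 0.57 (permutation p = 0.00041 and 0.00067, adjusted p = 0.0014 and 0.0020), r = 0.56 without the 2 farthest mice, among them HF-Q replicate 4, and 0.59 with a term for the slide. Neither Cdo1 and Csad (r = -0.01, rho = 0.06, permutation p = 0.96 and 0.76, adjusted p = 0.96 and 0.79) nor, over all 36 mice, Got1 and Got2 (r = 0.15, rho = 0.11, permutation p = 0.40 and 0.55, adjusted p = 0.45 and 0.60) showed a relation, and r stayed between 0.06 and 0.16 without the 2 farthest mice and between -0.09 and 0.16 with a term for the slide. Within groups, r for Got1 and Got2 was -0.12 at t=0, 0.62 in HF and -0.02 in HF-Q, and for Cdo1 and Csad 0.06, -0.08 and -0.03. Whether these differ between groups was not tested.

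**Figure D3:**
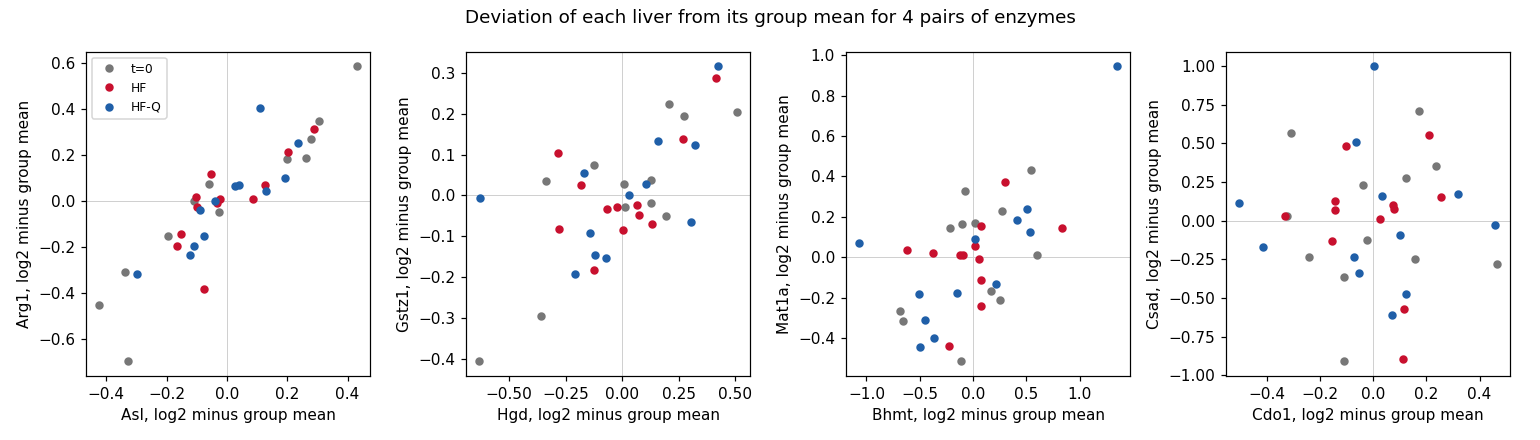
Deviation of each liver from the mean of its group, in log2 units, for 4 pairs of enzymes (x and y axes), coloured by group (12 mice each). Asl and Arg1 lie along a line (r = 0.89), Hgd and Gstz1 (r = 0.67) and Bhmt and Mat1a (r = 0.62) less closely, with HF-Q replicate 4 at the upper right of the Bhmt panel, and Cdo1 and Csad show no line (r = -0.01).

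Other measures that moved with the groups. These are bulk livers, in which fewer cells of a type and less RNA per cell cannot be told apart. The counts of markers and clock genes below stand beside these shares of all probes called in either direction. They were 20.9% in HF against t=0, 2.77% in HF-Q against HF and 11.7% in HF-Q against t=0. None of 5 measured hepatocyte markers passed in HF against t=0, and the mean of the 5 ran from 17.2 to 17.9 at t=0, 17.3 to 17.7 in HF and 17.2 to 17.7 in HF-Q. In HF against t=0, 2 of 5 Kupffer cell markers and 3 of 5 cholangiocyte markers rose, 1 of 5 endothelial markers fell (Pecam1, by 0.34, adjusted p = 0.0018), 1 of 4 lymphocyte markers rose (Ighm, by 0.63, adjusted p = 0.0013), and 3 of 6 pericentral markers fell, among them the ammonium carrier Rhbg by 0.74 (adjusted p = 9.2e-05). The mean of the Kupffer cell markers ran from 11.1 to 13.2 at t=0, 11.9 to 13.1 in HF and 11.9 to 12.8 in HF-Q, that of the cholangiocyte markers from 8.86 to 9.62, 9.25 to 9.95 and 9.02 to 9.47, and that of the pericentral markers from 13.6 to 14.2, 13.3 to 13.8 and 13.5 to 14.2. Of the 2 erythroid markers measured, the alpha-globin gene Hba-a1 rose by 0.93 in HF (adjusted p = 0.00012) and by 1.21 in HF-Q (adjusted p = 6.0e-06), whereas Alas2, the erythroid enzyme of haem synthesis, lay at -0.14 in HF (adjusted p = 0.20) and fell by 0.26 in HF-Q (adjusted p = 0.025). In HF-Q against HF, Sox9 of the cholangiocyte list fell by 0.60 (adjusted p = 0.0066), Ighm fell by 0.56 (adjusted p = 0.021) and Pecam1 rose by 0.38 (adjusted p = 0.0048). In HF-Q against t=0, 1 of the 5 hepatocyte markers and 1 of the 6 pericentral markers fell, and no Kupffer cell, cholangiocyte, endothelial or lymphocyte marker passed. None of 5 stellate cell and fibroblast markers passed in any comparison. The part of these cells in the falls of the set was not tested.

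Of 12 clock genes measured, 5 passed in HF-Q against HF (Arntl and Clock lower, Tef, Per3 and Nr1d2 higher), 4 in HF against t=0 (Clock and Nfil3 higher, Hlf and Per3 lower) and none in HF-Q against t=0 (limma, 1 at an unadjusted p under 0.05). Arntl, the clock transcription factor BMAL1, ran from 7.10 to 9.45 at t=0, from 7.80 to 9.23 in HF and from 6.90 to 8.61 in HF-Q, and was lower in HF-Q than in HF by 1.00 (SE 0.23, adjusted p = 0.014). With Arntl as a covariate, 12 of the 22 calls in HF against t=0 remained, among them Bhmt, Csad, Sds, Got1, Prodh, Aass, Hal and Agxt. The calls of Nags, Cps1, Asl, Arg1, Slc25a13, Gpt2, Hgd, Fah, Mat1a and Ahcy did not (adjusted p between 0.069 and 0.22). The change of each of these 10 kept its direction and was smaller in size, from -0.34 to -0.29 for Hgd, -0.32 to -0.25 for Cps1, 0.22 to 0.18 for Nags and -0.18 to -0.14 for Fah. It went from -0.28 to -0.19 for Asl, -0.28 to -0.18 for Arg1 and for Slc25a13, -0.37 to -0.21 for Gpt2, -0.36 to -0.20 for Mat1a and -0.30 to -0.17 for Ahcy. In HF-Q against t=0 the same term left 23 calls, against 20 without it. The share of all probes called with this term is not given here for these comparisons. Whether the loss of calls is particular to these genes was not tested.

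**Figure D4:**
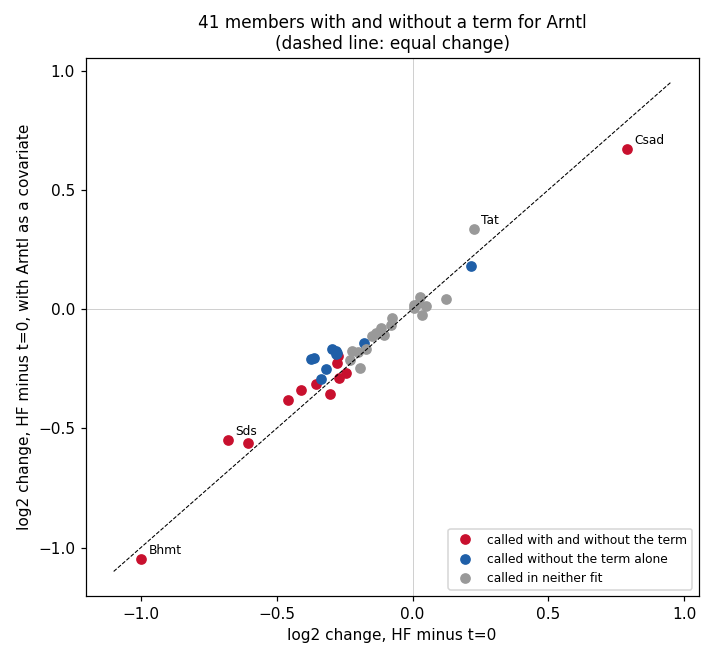
Log2 change of the 41 genes in HF against t=0 without (x axis) and with (y axis) Arntl as a covariate in the fit, with the line of equal change dashed. Bhmt, Sds, Got1 and Csad stay far from 0 in both fits, and the 10 genes in blue, called without the term alone, lie between -0.37 and 0.22 on the x axis.

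As for the arrays themselves, 56.4 to 67.4% of spots were well above background in Cy5 on 35 of the 36 arrays and 96.7% on the array of HF-Q replicate 2. HF replicate 5 lay farthest from its group mean (root mean square 0.50 over all probes, against 0.15 to 0.35 on the other 35), and t=0 replicate 4 had the lowest value of its group for many genes of the set, Cps1, Arg1, Hgd and Aass among them. Without HF replicate 5 alone, Agxt (-0.21, adjusted p = 0.052) and Arg1 (-0.28, adjusted p = 0.056) no longer passed in HF against t=0, and Aass passed in HF-Q against t=0 (-0.26, adjusted p = 0.046). Leaving out HF-Q replicate 2 alone changed no call of the 41 genes. Without these 3 arrays 25 of the 41 genes were called in HF against t=0, including all 22, and 22 in HF-Q against t=0, including all 20.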

How the data were processed

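RNA of 36 livers was hybridised on 4×44K Agilent arrays, 1 mouse per array in Cy5 against a common Cy3 pool, 4 arrays on each of 9 slides, every slide holding all 3 groups. The authors quantified spots with Agilent Feature Extraction (10.5.1.1 per the file headers), kept spots with both channels over 2 times background, took logs and normalised Cy5 against Cy3. The deposited log2 table holds 23256 spots, and it was joined to the scanner files by feature number. Its differences between arrays equal the log2 ratio of the deposited median signal intensities centred on each array's median (slope 1.00 over all spots, median absolute difference 0.011), and every array has a median of 8.96, so that scale, centring and direction are known.

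Spots of a probe were averaged. limma 3.58.1 in R 4.3.3 was fitted to all 21781 probes and 36 arrays with group means as coefficients, and p-values were adjusted by Benjamini-Hochberg in each of 3 comparisons. A gene's value is its brightest probe saturated on fewer than 18 arrays. Of the members, 38 were matched by accession and 3 by gene name alone, and 9 have several probes. Genes called in any comparison are named (27), the 12 with the largest change in full, and up to 5 other pathway genes per comparison. The members and lists were chosen with earlier results of these data known. The pairs of enzymes and the searched motifs were also chosen with results in view. The fit was tested on simulated data. Alternatives changed the normalization (scanner signal intensities with normexp, offset 50, and loess, Feature Extraction processed signals, median centring, quantile), the filters (4 times background in both channels, none), the model (slide, array position, replicate number, Arntl, array weights, the groups compared alone, the methods' t-test) and the arrays. The study's methods give C57BL/6JOlaHsd mice, 10 weeks old at entry, and another adaptation length than the labels, which are followed here. The number of arrays limits the precision.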

Additional observations from a re-analysis of the deposited data

How the results depend on the processing

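The number of genes called in HF-Q against HF was 0, and it was 1 after loess or quantile normalization, with Feature Extraction processed signals, without a filter on dim probes, with array position as a term (Slc25a13 higher in each), with median centring, with signal over 4 times background and with slide as a fixed block (Hal lower in each), and 2 with array weights (Hal lower, Mat1a higher). Leaving out HF-Q replicate 2, HF replicate 5, or both with t=0 replicate 4 gave 0 to 2, the last 2 of these chosen after seeing the data. In HF against t=0 the count of 22 lay between 20 and 29 in the other settings, with 20 to 25 on leaving out arrays, but was 12 with Arntl as a covariate. In HF-Q against t=0 the count of 20 lay between 18 and 23, with 20 to 22 on leaving out arrays. Counting a gene by any of its probes gave 25 and 22. Of the other pathway genes, 41 instead of 20 were called in HF against t=0 after loess normalization and 11 with Arntl, and in HF-Q against HF 0 instead of 3 with Arntl (limma, 9 at an unadjusted p under 0.05, where 34 of all probes were called). The cause of these shifts was not tested. No change of the 12 genes described in full reversed in any of 19 settings. Arg1 in HF against t=0 ceased to pass in 7 (adjusted p up to 0.22), and Agxt, Cps1 and Hgd in 1 each. Mice with the same replicate number did not deviate together (median correlations of -0.01, 0.06 and 0.03, over 0.1 in 3 or 4 of 12 pairs), so that the numbers do not pair them. With a replicate block 0, 21 and 20 genes were called, and 2, 18 and 28 of the other pathway genes. Signal over background did not limit the set: all 41 probes were well above background on all 36 arrays.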
